A study of Mus musculus with 2 samples.

Results

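The genes described here are Tnf and 9 genes of NF-κB feedback, Nfkbia, Nfkbiz, Tnfaip3, Nfkb1, Relb, Bcl3, Birc3, Zc3h12a and Icam1, which are 10 of the 32589 genes listed in both libraries. They were taken by gene symbol, as a set proposed with earlier results of these data known. Their levels were compared between livers with cholangiocarcinoma (CCA) of PBS-treated and anti–PD-1-treated shYT mice by single-cell RNA-Seq. There was 1 library per group. Both groups carried CCA induced by hydrodynamic tail vein injection (HDTVI) of the Notch intracellular domain (NICD) and myristoylated AKT, and both were shYT, which means that from day 25 doxycycline induced hairpins that target Yap1 as well as Wwtr1, the TAZ gene. Expression was driven by a ubiquitous CAG-rtTA3, so hairpins were not limited to tumor cells. One group received PBS, and the other received the anti-mouse PD-1 antibody RMP1-14 on days 26, 29 and 32. Tumor-bearing livers were taken on day 33, digested with enzymes, and freed of red blood cells, debris and dead cells before the Singleron GEXSCOPE protocol. The labels give neither the hairpin line, the sex nor the number of animals of a library. The study's legends state a number of mice per group for its cell maps, which was not tied to the cells of these libraries, and no library without the hairpins was used here.

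NF-κB is a family of transcription factor dimers, with Rela, Rel, Relb, Nfkb1 and Nfkb2 as subunits, that is held in the cytoplasm by IκB proteins until a receptor such as a TNF receptor, an antigen receptor or a Toll-like receptor signals. Among the genes it then turns on are its own inhibitors, so that a signal also induces the proteins that end it. TNF is both a product of the pathway, made above all by macrophages and activated T cells, and one of its strongest inducers. In liver, Kupffer cells, recruited macrophages and injured epithelial cells are well known sites of this signaling.

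Because the inhibitor genes are known targets of the factor they restrain, their promoters were searched for the NF-κB (κB) consensus motif on both strands. RefSeq promoter sequence, from 250 bases before to 50 bases after the start, was at hand for 7 of the 10 genes, and Nfkbiz, Nfkb1 and Relb had no entry. A match was found for 3 of these 7 genes, whereas 4.51% of all 32851 promoters of the same length held one. The first count is per gene and the second per promoter. The 7 genes had 8 listed starts, and the second start of Tnfaip3 had no match. Since the set was picked as NF-κB feedback genes, this is a description only. Nfkbia had 1 match, ending 19 bases before its start. Tnfaip3 had 2, which ended 2 and 115 bases before the first of its 2 listed starts. Bcl3 had 1 match, which began at the third base after its start. No match was found for Tnf, Birc3, Zc3h12a or Icam1, which says only that these letters are not in this window. The 250 bases before the start are shown for both inhibitors with a match there and for Tnf, the only cytokine among the 10 genes, 5′ to 3′ along the gene and with the κB matches in capitals.
Nfkbia (chr12:55492648-55492897, GRCm38.p6, reverse strand): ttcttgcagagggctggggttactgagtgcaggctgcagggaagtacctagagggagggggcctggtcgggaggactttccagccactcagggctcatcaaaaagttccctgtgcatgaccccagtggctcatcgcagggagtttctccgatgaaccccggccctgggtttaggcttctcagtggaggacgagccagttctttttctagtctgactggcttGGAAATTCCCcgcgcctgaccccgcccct
Tnfaip3 (chr10:19015411-19015660, GRCm38.p6, reverse strand): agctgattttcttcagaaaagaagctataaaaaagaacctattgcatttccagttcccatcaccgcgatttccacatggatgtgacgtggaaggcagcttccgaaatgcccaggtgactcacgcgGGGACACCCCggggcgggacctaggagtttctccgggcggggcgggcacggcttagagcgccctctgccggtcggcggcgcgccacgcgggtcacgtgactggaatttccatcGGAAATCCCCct
Tnf (chr17:35202008-35202257, GRCm38.p6, reverse strand): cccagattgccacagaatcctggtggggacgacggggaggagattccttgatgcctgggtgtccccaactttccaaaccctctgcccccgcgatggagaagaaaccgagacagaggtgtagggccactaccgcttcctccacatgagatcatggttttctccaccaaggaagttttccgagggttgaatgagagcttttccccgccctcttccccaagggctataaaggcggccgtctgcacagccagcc
These letters were not tied to any factor's binding in these samples, and a match is a description of the sequence.

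Cells were kept with 500 to 5000 detected genes and at most 10% mitochondrial unique molecular identifiers (UMIs), which left 15531 of 19397 PBS barcodes and 16360 of 19451 anti–PD-1 barcodes, at medians of 3159 and 2990 UMIs. A cell was put in the class with the most of its 6 marker genes detected (at least 2), and 12.3% and 12.4% of cells stayed in no class. Class names below mean cells that passed that gate. All 34 marker genes not used for gating were higher in their own class than in the other classes in both libraries. Even so, 7154 of the kept PBS barcodes and 9409 of the kept anti–PD-1 barcodes had at least 2 markers of a second class. Without them, 1805 of 3319 T cells of the PBS library and 1049 of 3486 of the anti–PD-1 library remained. The libraries differed in other ways. Xist, transcribed from the inactive X chromosome of females, had 30287 UMIs with PBS and 16 with anti–PD-1, and 4 Y-linked genes had 4162 and 19037, so sex and treatment cannot be told apart over all cells. Clec4f, a Kupffer cell gene, had a UMI in 8.98% of T cells of the PBS library and 30.6% of those of the anti–PD-1 library, where free RNA and barcodes of mixed cells cannot be told apart, so the split between Kupffer cells and other macrophages is uncertain. The libraries shared 219 barcode sequences.

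Levels are sums of UMIs over the cells of a class in a library, given as CPM (each count divided by the total of its sum and scaled alike everywhere) with exact Poisson 95% intervals, and a ratio is anti–PD-1 over PBS with an exact conditional 95% interval. These intervals cover counting error only. The spread between animals is unknown, because each group is 1 library, so no test was made. Higher and lower below describe these 2 libraries. A gene was counted as higher or lower where the ratio was at least 2-fold and it had at least 50 UMIs over both libraries in that class, and 9 classes with at least 100 cells in each library were compared. As alternatives, sums were also taken over male-gated cells (a UMI of a Y-linked gene, none of Xist) and with mixed barcodes (at least 2 markers of another class) left out.

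Of the 90 values of 10 genes in 9 classes, 43 were at least 2-fold higher with anti–PD-1 and 0 were at least 2-fold lower. In macrophages 6 of the 10 genes were counted as higher, against a background of 7.77% of all genes with 50 UMIs or more, and 0 as lower, against 4.1%. Kupffer cells also had 6 higher (background 5.03%) and 0 lower (2.28%). In tumor and biliary epithelial cells 6 were higher (4.24%) and 0 lower (4.24%). These were the same 6 genes in the 3 classes, namely Tnf, Nfkbia, Nfkbiz, Tnfaip3, Zc3h12a and Icam1. In NK cells 5 were higher (3.33%) and 0 lower (3.19%), and in neutrophils 5 were higher (3.9%) and 0 lower (10.7%). T cells had 4 higher (3.03%) and 0 lower (6.64%). Monocytes likewise had 4 higher (3.72%) and 0 lower (5.77%). In cancer-associated fibroblasts (CAFs) 5 of the 9 genes with enough UMIs were higher (3.72%) and 0 lower (4.27%). B cells had the fewest, with 2 higher (3.25%) and 0 lower (3.6%). The shares of these 10 genes counted as higher, between 2 and 6 genes per class, lay above the background in each of the 9 classes. Since the set was proposed with results of these data known, this is a description and not independent evidence. The median log2 ratio over all genes lay between -0.33 in neutrophils and -0.04 in tumor and biliary epithelial cells, while the median of the 10 genes lay between 0.20 in B cells and 1.26 in tumor and biliary epithelial cells. Taken relative to the median of all genes, 44 values were at least 2-fold higher, with Icam1 in T cells as the added one.

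**Figure D1:**
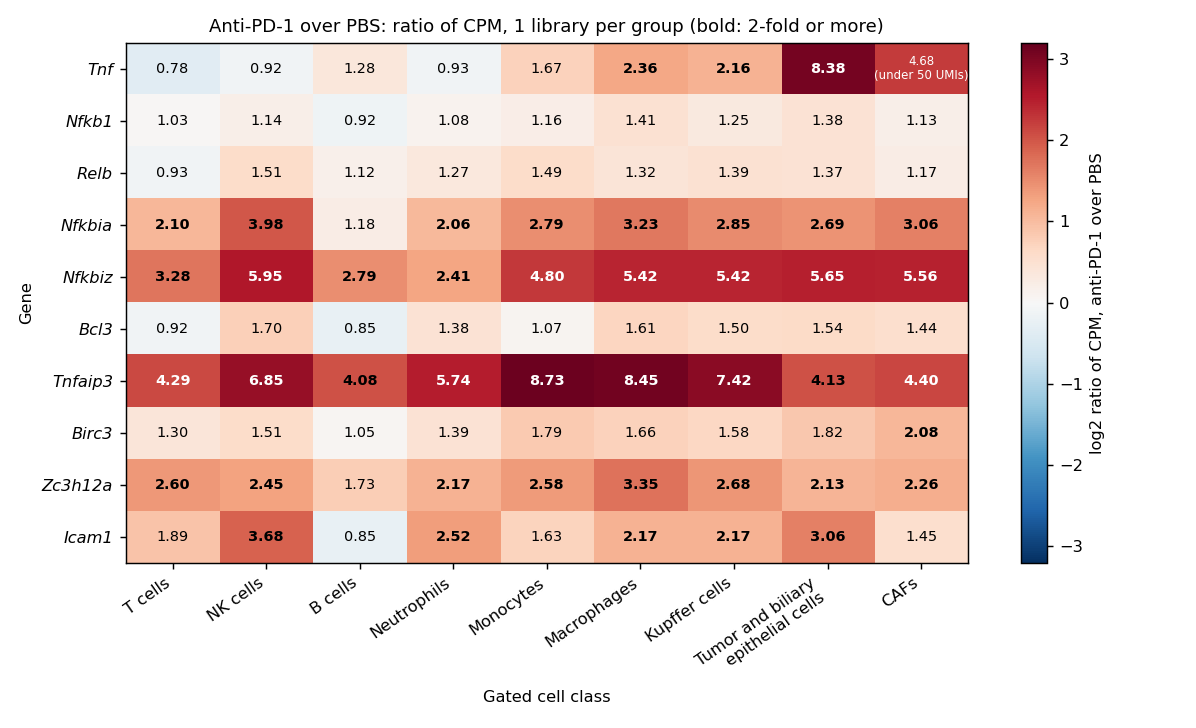
Ratio of CPM, anti–PD-1 over PBS, for each gene (rows) and each compared class (columns), with the fold printed in the cell, bold where it is at least 2, and the log2 ratio as color. The rows of Nfkbiz and Tnfaip3 are at least 2-fold in all 9 classes, and those of Nfkb1, Relb and Bcl3 in 0.

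The dissociation stress list, 14 immediate early and heat shock genes known to respond to tissue digestion, differed between the libraries in the same classes. Of its 14 genes, 10 were at least 2-fold higher in macrophages (background 7.77%) and 10 in Kupffer cells (5.03%). The count was 13 in tumor and biliary epithelial cells (4.24%) and 12 in CAFs (3.72%). It was 5 in T cells (3.03%), 5 in NK cells (3.33%), 4 in B cells (3.25%), 4 in monocytes (3.72%) and 3 in neutrophils (3.9%). In neutrophils Jun was lower with anti–PD-1, at 350 CPM against 1303 CPM with PBS. The summed level of the list ranged from 2798 CPM in CAFs to 12529 CPM in neutrophils of the PBS library, and from 8975 CPM in B cells to 17503 CPM in Kupffer cells of the anti–PD-1 library, with none of its genes at 0. Its ratio ran from 1.18 in neutrophils to 3.40 in CAFs. Several of the 10 genes described here belong to the same early response, and the part of digestion in their differences was not tested.

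Tnf (ENSMUSG00000024401, mm10 chromosome 17, 35199381 to 35202007, reverse strand) encodes TNF, one of the ligands that induce the pathway. Its level was highest in Kupffer cells, macrophages and neutrophils of the PBS library, at 94.4 CPM (88.9 to 100.2), 85.4 CPM (81.9 to 89.0) and 84.6 CPM (72.7 to 97.99), and each of these neighbors in the order had overlapping intervals. In the anti–PD-1 library Kupffer cells and macrophages stood at 203.8 CPM (198 to 209.7) and 201.4 CPM (192 to 211), and neutrophils at 78.8 CPM (72.4 to 85.5). Tnf was thus higher in both macrophage classes, by 2.36-fold (2.22 to 2.51) in macrophages and 2.16-fold (2.02 to 2.31) in Kupffer cells. Among male-gated cells these ratios were under 2-fold, at 1.72 (1.54 to 1.94) and 1.80 (1.56 to 2.08). With each cell given the same weight the macrophage ratio was 1.94. The neutrophil ratio of 0.93 (0.79 to 1.11) spanned 1. When monocytes, macrophages and Kupffer cells were joined, which removes the uncertain split, Tnf stood at 84.8 CPM and 198.7 CPM, a ratio of 2.34 (2.25 to 2.44). Monocytes alone had 39.6 CPM and 66.3 CPM, a ratio of 1.67 (1.22 to 2.28) that was 2.20 (1.03 to 5.39) among male-gated cells, on 8 and 47 UMIs.

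In tumor and biliary epithelial cells Tnf had 50 UMIs in 861 cells of the PBS library, or 10.4 CPM (7.75 to 13.8), and 154 UMIs in 436 cells of the anti–PD-1 library, or 87.4 CPM (74.2 to 102). The ratio was 8.38 (6.05 to 11.8), and of the values based on at least 50 UMIs in the 9 compared classes only Tnfaip3 in monocytes and macrophages had larger ones. Complement C1q genes, which mark macrophage RNA, summed to 301 CPM and 501 CPM in these cells. At that level macrophage RNA would bring 1.59 CPM of Tnf in the PBS library and 7.87 CPM in the anti–PD-1 library, and neutrophil RNA, scaled by S100a8 and S100a9, 0.20 CPM and 0.66 CPM. With every barcode that had at least 2 markers of another class left out, 478 and 224 cells remained, and Tnf had 8 UMIs (6.34 CPM) and 18 UMIs (49.1 CPM). The scaled values rest on the mean level of macrophages and of neutrophils, so they are no upper limit of RNA from other cells. The 5% of cells with the most Tnf UMIs held 65.6% of them in the anti–PD-1 library, with up to 18 UMIs in 1 cell. In the PBS library they held 100%, since only 4.76% of cells had a Tnf UMI, with up to 4 in 1 cell. CAFs, a class not known as a main source of TNF, had 13 and 23 UMIs, or 4.56 CPM and 21.4 CPM, of which macrophage RNA would bring 2.52 CPM and 9.21 CPM.

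In T cells Tnf stood at 34.3 CPM (30.9 to 37.9) in the PBS library and 26.8 CPM (24.3 to 29.5) in the anti–PD-1 library, 1.28-fold lower, with a ratio of 0.78 (0.68 to 0.90). The intervals of both levels did not overlap, but they do not cover grouping of UMIs in few cells. The 5% of T cells with the most Tnf UMIs held 68.7% and 70% of them, with up to 9 and 36 in 1 cell. Relative to the median of all genes the T cell ratio was 0.89 (0.77 to 1.03), which spanned 1. Macrophage RNA, scaled as above, would bring 2.85 CPM and 10.82 CPM of the Tnf in T cells, and with it subtracted the ratio was 0.52. Across the subsets of T cells, which were chosen after values had been seen, Tnf stood at 50.1 CPM and 38.7 CPM in CD4 T cells, at 25.3 CPM and 22.9 CPM in CD8 T cells and at 23.1 CPM and 19.96 CPM in Foxp3 T cells. Of these, the ratio in CD4 T cells, 0.77 (0.60 to 0.99), was below 1 throughout its interval, and those in CD8 and Foxp3 T cells spanned 1. NK cells had 32.8 CPM and 30.2 CPM and B cells 14.7 CPM and 18.7 CPM, and both ratios spanned 1. Macrophage RNA would bring 4.41 CPM and 13.03 CPM of the Tnf in B cells, where the ratio turned from 1.28 to 0.56 with it subtracted. Relative to the median of all genes, the ratios in NK cells and neutrophils lay above 1 (1.01 and 1.17) rather than below it. These ratios were not adjusted for macrophage RNA. It would bring 2.02 CPM and 8.18 CPM of the Tnf in NK cells, and 3.85 CPM and 17.3 CPM in neutrophils. With mixed barcodes left out, the NK cell ratio was 0.57 (0.28 to 1.11), on 28 and 14 UMIs. That in neutrophils was 1 (0.76 to 1.32).

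To compare how many cells had a Tnf UMI, UMIs were drawn at random down to 1000 per cell, and cells below that depth were not used. In macrophages 7.38% (6.51 to 8.33, exact binomial interval) of 3293 thinned cells of the PBS library and 11.4% (9.83 to 13.2) of 1434 of the anti–PD-1 library had one, after 181 and 416 cells were left out. Before thinning the shares were 28.9% and 27.9%, at median depths of 7014.5 and 2919.5 UMIs, so the order of the libraries was the opposite before thinning. Kupffer cells had 8.43% (6.94 to 10.1) and 13.9% (12.5 to 15.3). T cells had 2.96% (2.41 to 3.60) and 2.56% (2.05 to 3.14), with overlapping intervals. Tumor and biliary epithelial cells had 1.40% (0.70 to 2.50) of 784 cells and 5.72% (3.58 to 8.61) of 367 cells, at median depths of 2975 and 1810 UMIs. CAFs, the class not known as a main source of TNF, had 0.43% (0.05 to 1.55) of 463 cells and 3.55% (1.31 to 7.57) of 169 cells, at 3018 and 2549 UMIs. The epithelial and CAF shares of the anti–PD-1 library had overlapping intervals, on 21 and 6 cells with a UMI. These few cells do not decide whether the shares differ. The levels of that library, 87.4 CPM (74.2 to 102) in epithelial cells and 21.4 CPM (13.5 to 32.1) in CAFs, did not overlap.

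**Figure D2:**
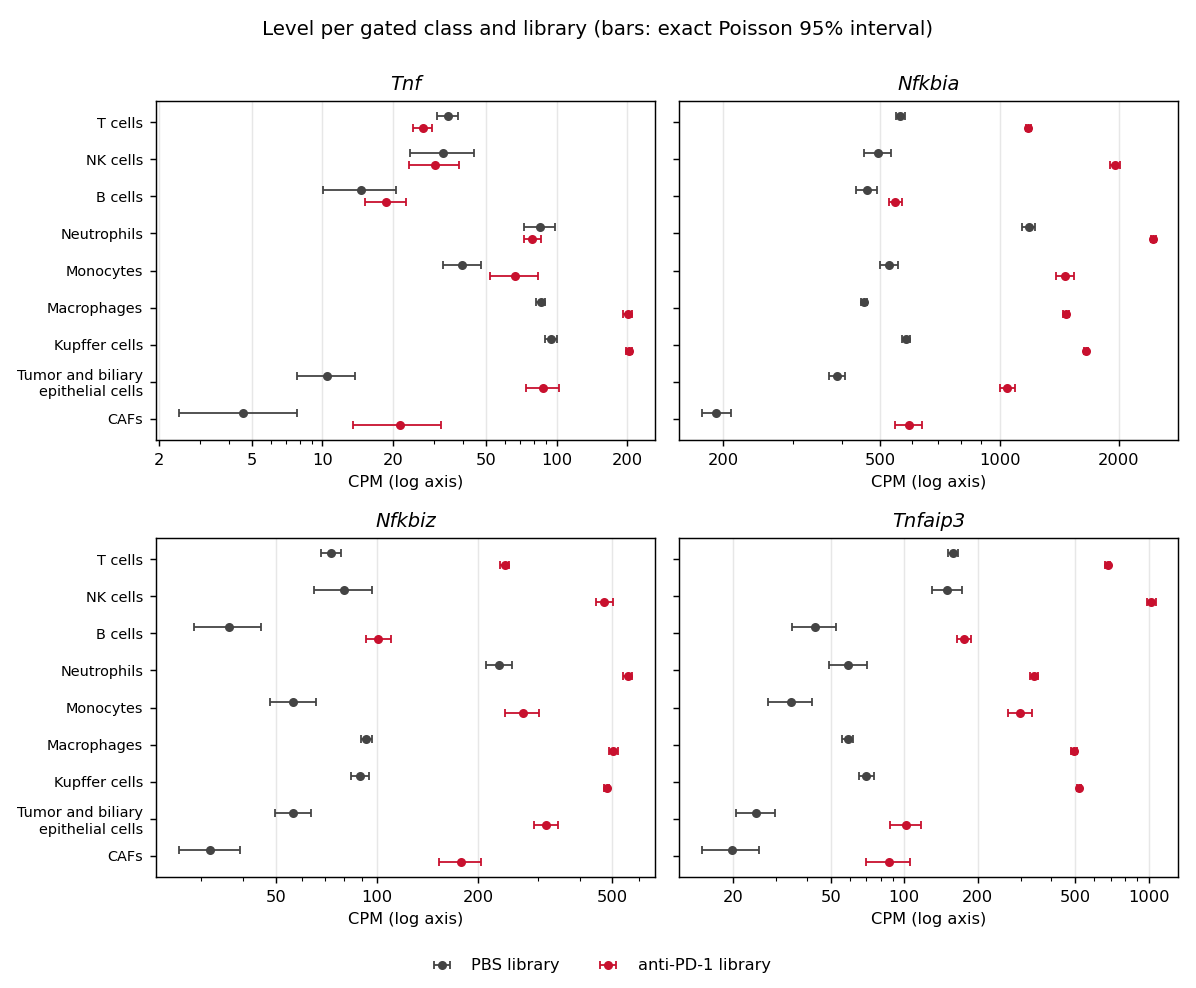
Level in CPM on a log axis of Tnf, Nfkbia, Nfkbiz and Tnfaip3 in each compared class (rows), for the PBS library (grey) and the anti–PD-1 library (red), with exact Poisson 95% intervals as bars. For Tnfaip3 and Nfkbiz the red points lie to the right of the grey ones in all 9 classes, and for Tnf they do not in T cells, NK cells and neutrophils.

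Nfkbia (ENSMUSG00000021025, chromosome 12, 55489410 to 55492647, reverse strand) encodes IκBα, the inhibitor that is degraded and then made again in each round of NF-κB activity. Neutrophils had the highest level among the compared classes in both libraries, at 1185 CPM (1139 to 1232) and 2445 CPM (2409 to 2482), a ratio of 2.06 (1.98 to 2.15). That ratio was just under 2-fold under 3 alternatives, at 1.98 with mixed barcodes left out, 1.98 with each cell given the same weight and 1.94 when a class had to lead by 2 markers. In macrophages the level was 455 CPM (447 to 463) with PBS and 1472 CPM (1447 to 1497) with anti–PD-1, 3.23-fold higher. NK cells had 492 CPM and 1960 CPM, and this ratio of 3.98 (3.66 to 4.33) was the largest for Nfkbia among the compared classes. Nfkbia was at least 2-fold higher in 8 of the 9 classes. The exception was B cells, with 461 CPM and 545 CPM, a ratio of 1.18 (1.10 to 1.27). This ratio spanned 1 with mixed barcodes left out, at 0.998 (0.89 to 1.12), and among male-gated cells, at 0.96 (0.82 to 1.14). In T cells it stood at 561.5 CPM and 1181 CPM, 2.103-fold higher, which was 1.90-fold with mixed barcodes left out and 1.97-fold among male-gated cells. CAFs, the lowest compared class with PBS, had 193 CPM and 589 CPM.

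Nfkbiz (ENSMUSG00000035356, chromosome 16, 55811375 to 55838899, reverse strand) encodes IκBζ, an atypical nuclear IκB that helps NF-κB to turn on secondary genes such as Il6 and Lcn2. It was at least 2-fold higher in all 9 classes, from 2.41-fold (2.20 to 2.66) in neutrophils to 5.95-fold (4.85 to 7.36) in NK cells. In B cells it was 1.70-fold (1.06 to 2.91) higher among male-gated cells. Macrophages had 93.0 CPM (89.4 to 96.8) and 504 CPM (490 to 519), and Kupffer cells 88.8 CPM and 481 CPM. Tumor and biliary epithelial cells had 56.4 CPM (49.8 to 63.5) and 319 CPM (293 to 346), a ratio that was 3.39 (2.39 to 4.81) with mixed barcodes left out. CAFs had 31.9 CPM (25.7 to 39.2) and 177 CPM (153 to 204), 5.56-fold higher. That ratio was 3.66 with each cell given the same weight and 11.3 (4.72 to 35.2) among male-gated cells, the latter on 5 and 147 UMIs. In neutrophils, which led the PBS library among the compared classes at 231 CPM (211 to 252), the level was 557 CPM (540 to 575) with anti–PD-1.

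Bcl3 (ENSMUSG00000053175, chromosome 7, 19808462 to 19822770, reverse strand), the third IκB family member, acts in the nucleus with NF-κB1 and NF-κB2 homodimers. Over all cells it was at least 2-fold higher in 0 of the 9 classes. Its ratio ran from 0.85 (0.70 to 1.04) in B cells, with 72.0 CPM and 61.1 CPM, to 1.70 (1.22 to 2.42) in NK cells, with 36.7 CPM and 62.6 CPM. In macrophages it stood at 37.9 CPM (35.6 to 40.3) and 60.9 CPM (55.9 to 66.3), 1.61-fold higher. The 2-fold limit was passed under some alternatives. Among male-gated cells the ratio was 3.02 (1.13 to 11.3) in NK cells, on 4 and 80 UMIs, and 2.38 (1.86 to 3.08) in macrophages. It was 2.26 in NK cells when a class had to lead by 2 markers. With mixed barcodes left out it was 2.71 (1.71 to 4.26) in tumor and biliary epithelial cells, against 1.54 over all of them, and 1.67 in monocytes, against 1.07. Over all cells the interval of the ratio lay above 1 in 5 classes and spanned it in 4. In each of the 9 classes that interval lay below those of Nfkbia and Nfkbiz.

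The subunit Nfkb1 (ENSMUSG00000028163, chromosome 3, 135584655 to 135691547, reverse strand), which encodes p105 and its product p50, was close to level. T cells had 169 CPM (161 to 177) and 174 CPM (167 to 180), and the ratio spanned 1 in 6 of the 9 classes. It lay above 1 in macrophages, with 104 CPM and 148 CPM and the largest ratio, 1.41 (1.32 to 1.51), in Kupffer cells (1.25) and in tumor and biliary epithelial cells (1.38). Relb (ENSMUSG00000002983, chromosome 7, 19606217 to 19629438, reverse strand) is the subunit of the noncanonical pathway that is known to mark maturing dendritic cells. Over all cells it was at least 2-fold higher in 0 classes, and its largest ratio was 1.51 (1.09 to 2.11) in NK cells, with 41.4 CPM and 62.6 CPM. That ratio was 2.42 (1.43 to 4.23) with mixed barcodes left out. Among male-gated cells the Relb ratio was 2.01 (1.28 to 3.27) in tumor and biliary epithelial cells, 1.88 (1.03 to 3.82) in B cells and 6.85 (1.21 to 272) in neutrophils, the last on 1 and 137 UMIs. In T cells Relb and Bcl3 had ratios of 0.93 and 0.92, which spanned 1 and turned to 1.06 and 1.05 relative to the median of all genes. Nfkb1 in B cells did likewise, at 0.92 and then 1.01.

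Tnfaip3 (ENSMUSG00000019850, chromosome 10, 19000910 to 19015657, reverse strand) encodes A20, a ubiquitin-editing enzyme that shuts off signaling downstream of TNF and Toll-like receptors. It was at least 4-fold higher in all 9 classes, the largest difference of the 10 genes in 7 of them. With mixed barcodes left out it was 1.91-fold (0.52 to 5.97) in CAFs, on 11 and 5 UMIs. It was 3.37-fold in tumor and biliary epithelial cells when a class had to lead by 2 markers and 3.10-fold in B cells among male-gated cells. Male-gated NK cells, neutrophils, Kupffer cells and CAFs had ratios of 11.3, 11.9, 11.4 and 8.70, against 6.85, 5.74, 7.42 and 4.40 over all cells, with 18, 5, 83 and 3 UMIs in the PBS library. Monocytes had 34.3 CPM (27.7 to 41.8) with PBS and 299 CPM (267 to 334) with anti–PD-1, 8.73-fold higher (6.93 to 11.1). Macrophages followed, with 58.7 CPM (55.8 to 61.7) and 496 CPM (482 to 511), 8.45-fold higher. NK cells, with 150 CPM (130 to 173) and 1027 CPM (986 to 1070), had the highest level of the compared classes in the anti–PD-1 library. T cells stood at 158 CPM (151 to 166) and 679 CPM (666 to 692). B cells, at 43.1 CPM (34.8 to 52.7) and 176 CPM (165 to 187), had the smallest ratio, 4.08 (3.30 to 5.10). In tumor and biliary epithelial cells the level was 24.6 CPM (20.4 to 29.5) and 102 CPM (87.3 to 118), of which macrophage RNA would bring 1.10 CPM and 19.4 CPM.

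In cells thinned to 1000 UMIs, the share with a Tnfaip3 UMI was 14.6% and 46.3% in T cells, 10.4% and 59.5% in NK cells, 5.62% and 31.6% in macrophages and 4.93% and 22.5% in neutrophils. CAFs had the lowest shares in both libraries, at 2.38% and 7.69%, next to 2.68% and 7.90% in tumor and biliary epithelial cells. The shares of T cells, NK cells, macrophages and neutrophils with a UMI were thus larger in the anti–PD-1 library at equal depth. Before thinning, 31.4% and 80.5% of T cells had a UMI. Among the T cell subsets the level of Tnfaip3 was 164 CPM and 568 CPM in CD8 T cells, 162 CPM and 743 CPM in CD4 T cells and 173 CPM and 733 CPM in Foxp3 T cells.

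Birc3 (ENSMUSG00000032000, chromosome 9, 7848699 to 7873186, reverse strand) encodes cIAP2, a ubiquitin ligase that passes on TNF receptor signals and protects from cell death. Over all cells only CAFs reached 2-fold, with 29.5 CPM (23.5 to 36.5) and 61.3 CPM (47.4 to 78.0), a ratio of 2.08 (1.48 to 2.91) that was 1.92 with 5 CPM added to both levels. With mixed barcodes left out the Birc3 ratio was 2.53 (1.91 to 3.36) in monocytes and 2.21 (1.28 to 3.74) in tumor and biliary epithelial cells, against 1.79 and 1.82 over all cells. Its interval over all cells lay above 1 in 8 classes. Neutrophils had 246 CPM and 341 CPM, 1.39-fold higher, and B cells 247 CPM and 259 CPM, with a ratio of 1.05 (0.95 to 1.16). Zc3h12a (ENSMUSG00000042677, chromosome 4, 125118423 to 125127840, reverse strand) encodes Regnase-1, an RNase that degrades mRNAs of cytokines and of Nfkbiz itself. It was at least 2-fold higher in 8 of 9 classes with its largest ratio in macrophages, at 38.1 CPM (35.8 to 40.5) and 128 CPM (120 to 135), 3.35-fold higher (3.07 to 3.65). B cells were the exception, at 37.6 CPM and 65.0 CPM, a ratio of 1.73 (1.35 to 2.23). Among male-gated cells the ratio was 2.22 (1.10 to 5.23) in B cells, on 8 and 174 UMIs, 1.29 (0.73 to 2.53) in neutrophils and 1.78 (0.93 to 3.81) in NK cells, these 2 on 12 and 10 UMIs in the PBS library. When a class had to lead by 2 markers, it was 1.83 in NK cells and 1.97 in neutrophils. In CAFs its call rested on 27 and 23 UMIs, and the ratio was 1.16 with each cell given the same weight and 1.05 with mixed barcodes left out. In tumor and biliary epithelial cells, at 2.13-fold, it was 1.83-fold with 5 CPM added and 1.90-fold with macrophage RNA subtracted.

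Icam1 (ENSMUSG00000037405, chromosome 9, 21015985 to 21028817, forward strand) encodes an adhesion molecule for leukocyte integrins and is a classical NF-κB target. It was at least 2-fold higher in 5 of 9 classes. NK cells had 86.8 CPM (71.4 to 105) and 319 CPM (296 to 343), 3.68-fold higher (3.01 to 4.53). Tumor and biliary epithelial cells had 67.2 CPM (60.1 to 75.0) and 206 CPM (185 to 228), 3.06-fold higher (2.62 to 3.56), a ratio that was 2.03 (1.38 to 2.96) with mixed barcodes left out. Neutrophils had 57.2 CPM and 144 CPM, 2.52-fold higher. Both macrophage classes had a ratio of 2.17. In B cells it stood at 60.1 CPM and 51.0 CPM, and this ratio of 0.85 (0.69 to 1.05) spanned 1. CAFs, at 51.2 CPM and 74.3 CPM, had a ratio of 1.45 (1.09 to 1.92) that turned to 0.91 (0.57 to 1.51) among male-gated cells, on 26 and 62 UMIs. The Icam1 ratio passed 2-fold in T cells among male-gated cells, at 2.99 (2.20 to 4.18) against 1.89 over all T cells, and in monocytes with mixed barcodes left out, at 2.50 (1.82 to 3.41) against 1.63.

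**Figure D3:**
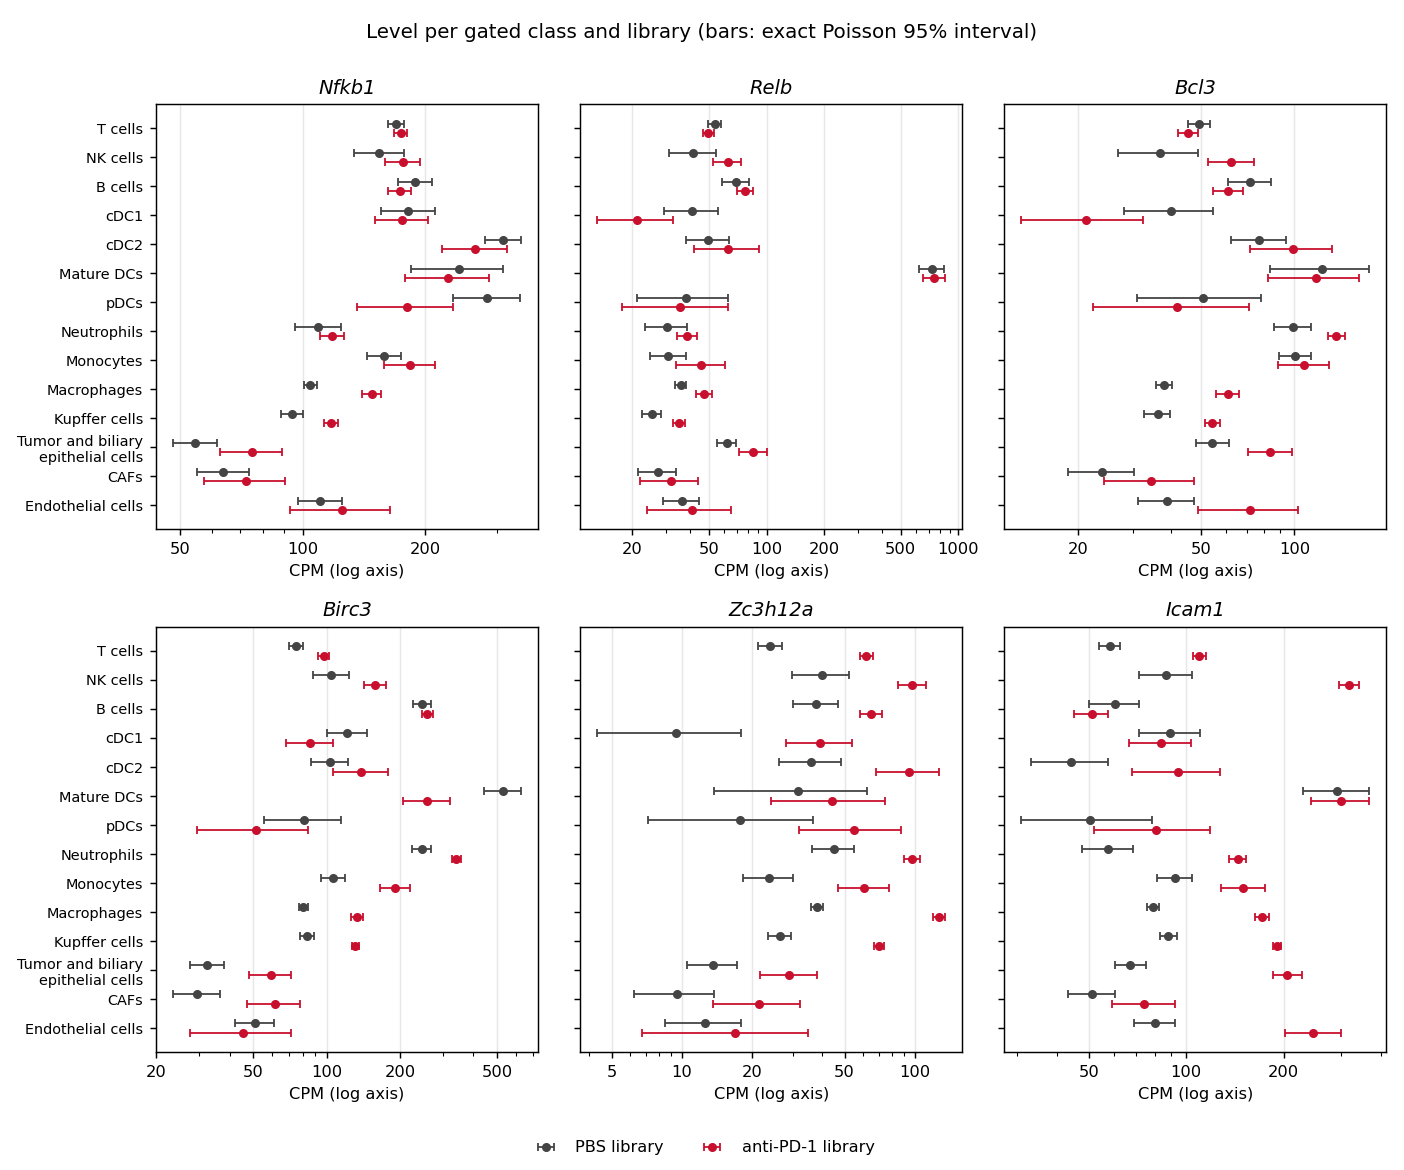
Level in CPM on a log axis of Nfkb1, Relb, Bcl3, Birc3, Zc3h12a and Icam1 in 14 gated classes (rows), for the PBS library (grey) and the anti–PD-1 library (red), with exact Poisson 95% intervals as bars. Mature DCs stand apart for Relb in both libraries, and the red and grey bars of Nfkb1 overlap in most classes.

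Dendritic cells and endothelial cells fell short of 100 cells in at least 1 library, and are given as levels. Mature DCs, 56 and 50 cells, had by far the highest Relb, at 724 CPM (623 to 837) and 749 CPM (657 to 851), while the next class stood at 69.2 CPM in the PBS library (B cells) and 85.2 CPM in the anti–PD-1 library (tumor and biliary epithelial cells). They also led for Birc3 in the PBS library, at 530 CPM (444 to 628), and had 259 CPM (206 to 322) with anti–PD-1. In mature DCs Icam1 was level, at 293 CPM and 300.4 CPM. cDC2, 186 and 61 cells, had 79 Tnf UMIs with PBS and 8 with anti–PD-1, or 63.1 CPM (49.99 to 78.7) and 17.9 CPM (7.75 to 35.4). Endothelial cells, 493 and 87 cells, had Nfkbiz at 26.0 CPM (19.9 to 33.3) and 209 CPM (167 to 258), and Icam1 at 80.1 CPM (69.2 to 92.3) and 247 CPM (202 to 300.1). Cells of no class had Tnfaip3 at 64.8 CPM and 461 CPM and Tnf at 33.7 CPM and 75.2 CPM.

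The other genes of the pathway were taken from a list of 30, and 20 of them were at least 2-fold apart in 0 of the 9 classes. These included Rela, Nfkb2, the IκB kinase genes Ikbkb, Chuk and Ikbkg, the TNF receptor gene Tnfrsf1a, and Ripk1, Cyld and Adam17. The genes counted most often were Rel, which encodes c-Rel, in 7 of 9 classes, Nfkbid, which encodes the nuclear IκBNS, in 7 of 8 and Nfkbie, which encodes IκBε, in 6 of 9. Rel stood at 155 CPM and 626 CPM in B cells, 4.04-fold higher (3.61 to 4.53), although Nfkbia, Icam1 and Zc3h12a were under 2-fold there. These counts are read beside the background of each class given above. In macrophages 4 of 29 genes with enough UMIs were higher (13.8% against 7.77%), namely Rel, Nfkbib, Nfkbie and Nfkbid, and 0 were lower. In Kupffer cells 5 of 29 were higher (17.2% against 5.03%), with Traf1 and Tnip3 beside Rel, Nfkbie and Nfkbid. Tumor and biliary epithelial cells had 3 of 27 higher (11.1% against 4.24%), namely Rel, Nfkbid and Tnfrsf1b, and NK cells 4 of 27 (14.8% against 3.33%), namely Rel, Nfkbie, Nfkbid and Map3k14. The counts were 2 of 30 in T cells (Rel and Nfkbid), 2 of 29 in B cells (Rel and Nfkbid), 2 of 29 in monocytes (Nfkbie and Nfkbid), 1 of 28 in neutrophils (Nfkbie) and 2 of 26 in CAFs (Rel and Nfkbie). The share in neutrophils, 3.57%, was near the background of 3.9%, and those in T cells, B cells, monocytes and CAFs, 6.67% to 7.69%, rested on 2 genes each. Lower genes were Lta, a TNF family ligand, in T cells and the kinase gene Map3k7 in neutrophils, which had a ratio of 0.49 (0.37 to 0.66).

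**Figure D4:**
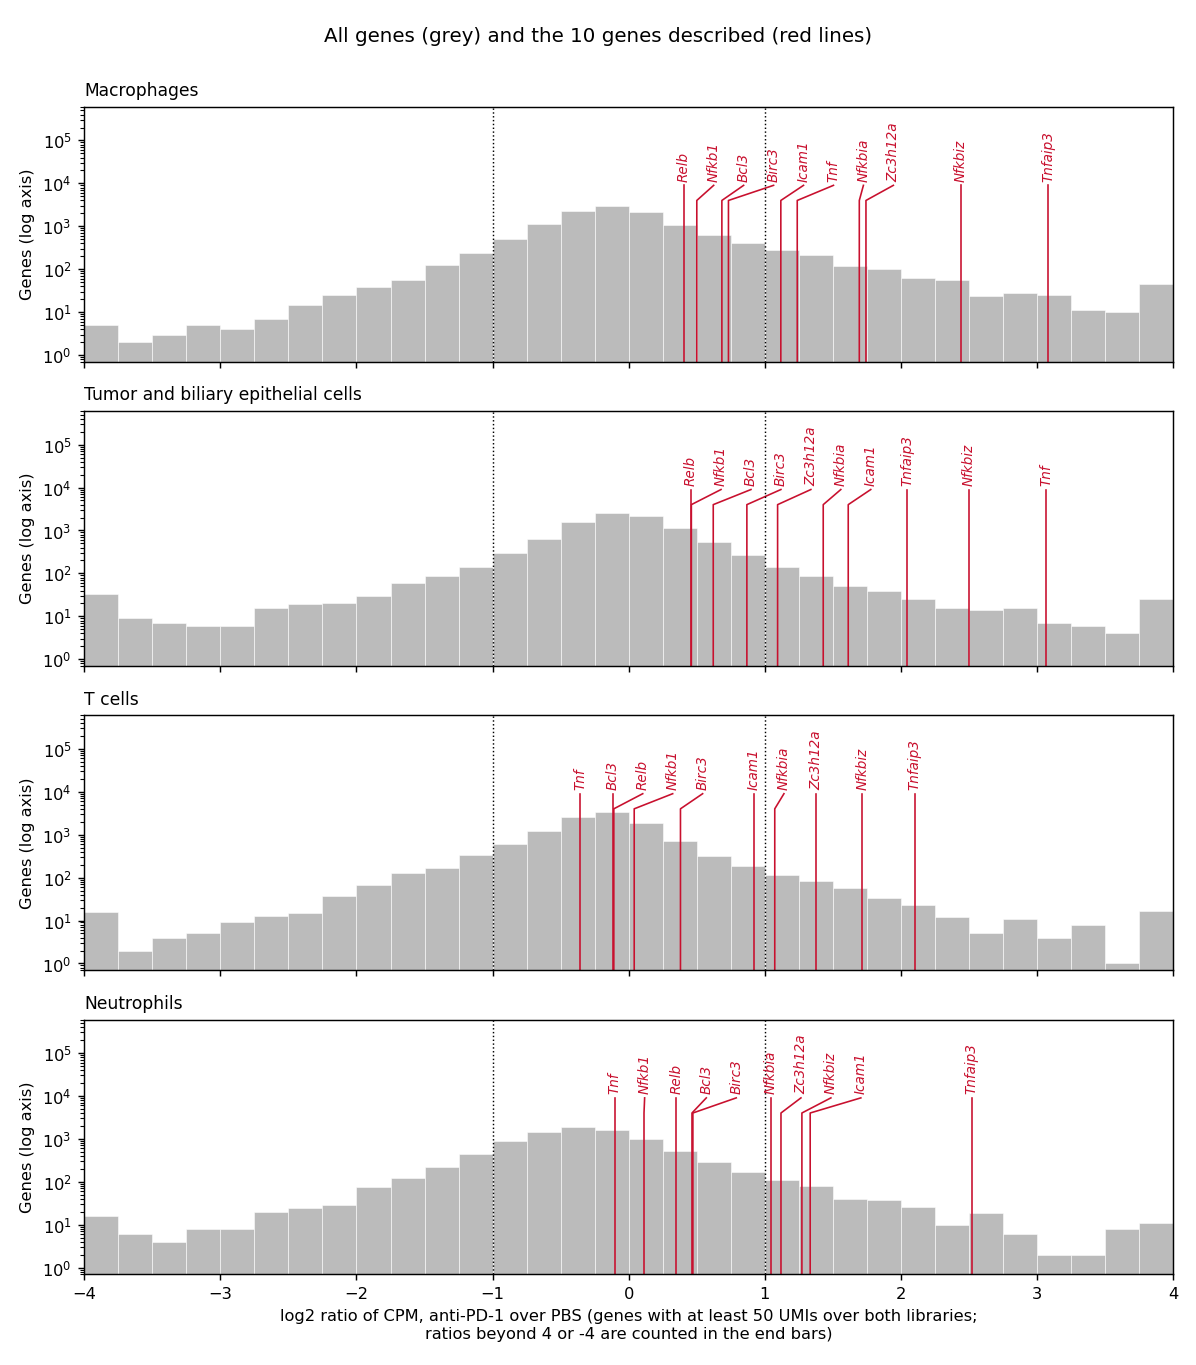
Number of genes (log axis) by log2 ratio of CPM, anti–PD-1 over PBS, over all genes with at least 50 UMIs in macrophages, tumor and biliary epithelial cells, T cells and neutrophils (grey bars), with the 10 genes as red lines and 2-fold as dotted lines. In macrophages and in tumor and biliary epithelial cells all 10 lines lie to the right of 0, and in T cells those of Tnf, Bcl3 and Relb lie to the left.

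The genes whose levels were most like those of Tnf over the 18 points (9 classes in 2 libraries, on the log2(CPM + 1) scale) were Hk3, Zfp36 and Parp9, among 7260 genes with a mean of at least 20 CPM, with Pearson r of 0.85, 0.84 and 0.83. For Nfkbia they were Irf1, Csrnp1 and Ifrd1, at 0.91, 0.89 and 0.88. Within the 10 genes, Nfkbia and Nfkbiz were the most alike (r = 0.94), and Tnf and Tnfaip3 were less so (r = 0.47). These are descriptions only, since points of a library share its depth, its free RNA and its treatment. Zfp36, which encodes an RNA-binding protein that shortens the life of Tnf mRNA, stood at 636 CPM and 1994 CPM in macrophages, and it is also 1 of the 14 genes of the dissociation stress list.

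Restricting the comparison to cells with a Y-linked UMI and no Xist UMI, which were 9.54% of cells of the PBS library and 48.1% of those of the anti–PD-1 library, left 346 and 755 macrophages. In these, Tnf stood at 123 CPM and 213 CPM, a ratio of 1.72 (1.54 to 1.94), and no longer reached 2-fold. The ratio in Kupffer cells was 1.80. Tnfaip3 in the same macrophages had 57.3 CPM and 546 CPM, 9.52-fold higher, Nfkbiz 111 CPM and 532 CPM and Nfkbia 442 CPM and 1513 CPM. In T cells so restricted Tnf had 48.5 CPM and 29.7 CPM, a ratio of 0.61 (0.46 to 0.83), and Nfkbia a ratio of 1.97. B cells had 16 and 64 Tnf UMIs, or 52.5 CPM and 21.4 CPM, a ratio of 0.41 (0.23 to 0.76), at least 2-fold lower, whereas that over all B cells spanned 1. Over all B cells only 1.84% and 4.37% had a Tnf UMI, with up to 8 and 9 UMIs in 1 cell. An interval over UMIs does not cover such grouping in few cells. Epithelial Tnf among male-gated cells rested on 3 UMIs in the PBS library against 112, a ratio of 16.8 (5.601 to 82.7).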

How the data were processed

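The authors deposited unnormalized UMI counts, 1 matrix of genes by barcodes for each library. Per the study's methods they were made with the Singleron software, and the submitters' processing notes name mm10 and Seurat 4.3. The software version, gene annotation and handling of strand are not given in the sources used here. Gene positions were taken from GENCODE vM21 (GRCm38), and promoters from RefSeq (GRCm38.p6).

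Cells were filtered with the study's limits and put in 1 of 17 classes by fixed markers (6 each, a unique lead of at least 1 marker). Monocytes, macrophages and Kupffer cells counted as 1 lineage and were then split, Kupffer cells by a Clec4f UMI and at least 2 Kupffer markers, Clec4f included. No doublet caller was run, so 7154 and 9409 kept barcodes with at least 2 markers of a second class stayed in. Sums were compared as CPM with no pseudocount, and a library at 0 was set to 3 counts. UMI counts were not modeled across genes, because 1 library per group allows no test. All 10 genes were named in every compared class, with the 3 genes most correlated with Tnf and with Nfkbia and pathway genes that passed 2-fold. The genes, lists and gates were chosen with earlier results of these data known. In total 14 alternatives were run, 12 planned and 2 chosen after seeing the data. The CPM ratio, its interval and the Poisson interval were tested on simulated Poisson counts, and the other steps were not. Such counts hold no grouping of UMIs in few cells, so the intervals were not tested for it. The software was Python 3.11.15, numpy 2.4.6, scipy 1.17.1, pandas 2.3.3 and matplotlib 3.10.9.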

Additional observations from a re-analysis of the deposited data

Results flagged for a closer look

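Tnf differed in direction between classes of the same libraries. Its log2 ratio, anti–PD-1 over PBS, was 1.24 in macrophages, 1.11 in Kupffer cells and 3.07 in tumor and biliary epithelial cells, and -0.36 in T cells. Relative to the median of all genes the interval of the T cell ratio, 0.77 to 1.03, spanned 1. With 1 library per group the difference between classes was not tested.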

How the results depend on the processing

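Of the 14 alternatives run, 12 or 13 applied to each of the 43 values counted as at least 2-fold higher, which gave 544 recomputed values, all in the same direction. Of these, 533 rested on at least 50 UMIs, and 512 of them stayed at least 2-fold. For 33 of the 43, every alternative value on at least 50 UMIs was at least 2-fold. Of the 46 values with enough UMIs that were not counted, 13 reached 2-fold under at least 1 alternative in which they also had at least 50 UMIs, 8 of them among male-gated cells (1 lower, Tnf in B cells) and 5 with mixed barcodes left out. The count of genes at least 2-fold higher in neutrophils was 3 in place of 5 when a cell's class had to lead by 2 markers, where Nfkbia (1.94-fold) and Zc3h12a (1.97-fold) fell just short. In CAFs it was 3 in place of 5 with 5 CPM added before the ratio, 3 of 5 measured genes among male-gated cells (a UMI of a Y-linked gene, none of Xist), and 1 of 1 measured gene with barcodes of mixed markers left out, since fewer cells remained. In all other classes the count stayed within 1.5 times under every alternative run, but the genes behind it could change. In tumor and biliary epithelial cells with mixed barcodes left out, Tnf and Zc3h12a had fewer than 50 UMIs. Bcl3 (2.71-fold) and Birc3 (2.21-fold) were then at least 2-fold higher. In male-gated B cells Nfkbiz fell to 1.70-fold and Zc3h12a rose to 2.22-fold. Tnf was 1.94-fold higher in macrophages with each cell given the same weight and 1.72-fold among male-gated cells. Nfkbia in T cells was 1.90-fold higher with mixed barcodes left out, and Tnf in T cells ran from 0.52 with macrophage RNA subtracted to 0.89 with median-ratio scaling. The cause of these shifts was not tested. Joining the macrophage classes and subtracting macrophage RNA were chosen after seeing the data. No paired analysis was possible because each group is 1 library, and leaving out a replicate was not possible for the same reason. In CAFs Tnf had fewer than 50 UMIs over both libraries and was not counted.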
